A study of Mus musculus with 4 samples.

Results

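The Irf8 locus was described from the peaks that ATAC-seq found open in WT and IRF8KO microglia, the resident macrophages of the brain. Every deposited peak overlapping the Irf8 gene body plus 100 kb on each side was taken, which is chromosome 8, 120636358 to 120856694, in GRCm38, a window of 220 kb. This gave 248 of 677170 distinct peaks in all, of which the WT libraries held 60 and 64 and the IRF8KO libraries 66 and 58. ATAC-seq uses the Tn5 transposase, which cuts open chromatin and leaves sequencing adapters there. The 4 libraries came from untreated microglia of the C57BL/6 strain, freed from brains of 3-month-old mice without enzymes and sorted by flow cytometry. The genotypes are WT (replicates 1 and 2) and IRF8KO (replicates 1 and 2). The labels do not describe the knockout allele, and they do not say whether the replicates came from separate mice, so p-values measure only the spread between these libraries, which may be technical.

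The protein IRF8, an interferon regulatory factor, binds DNA weakly alone and more firmly with partners such as PU.1 and BATF. It directs the development of monocytes, dendritic cells and microglia. Its own gene is controlled by several distant enhancers. The element about 50 kb upstream of the start site is known as a macrophage enhancer bound by PU.1. The one about 56 kb downstream acts in myeloid progenitors and monocytes, the one about 41 kb downstream in dendritic cell precursors through E proteins, and the one about 32 kb downstream in cross-presenting dendritic cells through BATF3 and IRF8 itself.

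The height of a peak is its pileup, the number of extended cut sites at the summit, given here as normalised pileup, that is per 1000000 tags in the file header ("per tag" in comparisons). Header tags ran from 46948938 to 78793572 and were more numerous in both IRF8KO libraries. Peaks with −log10 q of 2 or more are called strict. Overlapping strict peaks were joined across libraries, giving 155546 regions in the genome, of which 63 lay in the window. Over the 58550 regions with a deposited peak in all 4 libraries, median normalised pileup was 0.767 and 0.614 in WT against 0.444 and 0.695 in IRF8KO. The median log2 difference, IRF8KO minus WT, was therefore -0.31 genome-wide, and differences per tag are given beside those obtained after each library was centred on its median. Strict peaks lay at the promoters of all 7 microglia markers examined in both WT libraries and of 6 in both IRF8KO libraries, the exception being Sall1, and their summed promoter height was 22.1 and 16.2 in WT against 8.35 and 13.5 in IRF8KO. Of 3 markers of border macrophages, Mrc1 had a strict promoter peak in all 4 libraries and Cd163 only in both IRF8KO libraries, while Lyve1 had no peak in any. The summed promoter normalised pileup of these 3 was 0.341 and 0.286 in WT against 1.09 and 2.23 in IRF8KO. Lists of 6 other cell types had 0 to 3 markers with a strict promoter peak per library, with sums of 0.225 to 2.04 in WT and 0 to 1.36 in IRF8KO. The part of such cells in the differences below was not tested, and in bulk libraries a change in the share of cells cannot be told apart from a change within each cell.

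The promoter and 5 of the regions described later are given here as reference sequence on the plus strand, since later results refer to them. The promoter is from RefSeq (GRCm38.p6, chr8:120736108-120736407). The others are the 201 bases around the highest summit of a region, read from GRCm38. Regions are named by the distance of that summit from the Irf8 start site at 120736358. Capitals mark matches to the ETS-IRF composite (GGAA, any 2 bases, GAAA), an IRF repeat (GAAA, any 2 bases, GAAA), PU.1 (AGGAAGT), AP-1 (TGANTCA), CEBP (TTGCNNAA), RUNX (TGTGGT), the STAT-binding GAS element (TTCNNNGAA) or the E-box (CAGCTG), on either strand. The ETS-IRF and IRF repeat motifs can overlap, as can PU.1 and the ETS-IRF motif.
Irf8 promoter: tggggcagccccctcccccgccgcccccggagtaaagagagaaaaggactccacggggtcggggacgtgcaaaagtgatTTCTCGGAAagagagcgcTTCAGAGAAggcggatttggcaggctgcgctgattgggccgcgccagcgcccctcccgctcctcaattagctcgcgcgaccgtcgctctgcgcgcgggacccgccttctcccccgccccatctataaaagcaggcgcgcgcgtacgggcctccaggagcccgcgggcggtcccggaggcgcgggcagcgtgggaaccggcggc
-50.1 kb, chr8:120686125-120686325, the highest peak of the window: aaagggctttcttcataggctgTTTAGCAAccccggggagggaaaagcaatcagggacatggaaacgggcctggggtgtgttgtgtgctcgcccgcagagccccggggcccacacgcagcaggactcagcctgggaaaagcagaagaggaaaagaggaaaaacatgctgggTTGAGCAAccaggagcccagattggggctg
-20.1 kb, chr8:120716153-120716353, the region with the greatest log2 difference: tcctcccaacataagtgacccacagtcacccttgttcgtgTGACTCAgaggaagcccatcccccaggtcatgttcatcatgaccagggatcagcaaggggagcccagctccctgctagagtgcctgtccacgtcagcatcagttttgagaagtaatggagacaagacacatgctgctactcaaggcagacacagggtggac
+7.7 kb, chr8:120743973-120744173, strict in both IRF8KO libraries only: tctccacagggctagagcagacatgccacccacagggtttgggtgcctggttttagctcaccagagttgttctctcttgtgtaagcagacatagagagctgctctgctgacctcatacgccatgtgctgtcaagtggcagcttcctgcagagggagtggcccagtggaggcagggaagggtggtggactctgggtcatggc
+31.2 kb, chr8:120767471-120767671, strict in both WT libraries only: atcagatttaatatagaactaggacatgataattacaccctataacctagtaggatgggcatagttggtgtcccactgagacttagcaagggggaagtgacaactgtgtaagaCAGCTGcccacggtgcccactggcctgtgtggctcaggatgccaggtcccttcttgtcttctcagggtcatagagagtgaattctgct
+56.6 kb, chr8:120792817-120793017, the known downstream enhancer: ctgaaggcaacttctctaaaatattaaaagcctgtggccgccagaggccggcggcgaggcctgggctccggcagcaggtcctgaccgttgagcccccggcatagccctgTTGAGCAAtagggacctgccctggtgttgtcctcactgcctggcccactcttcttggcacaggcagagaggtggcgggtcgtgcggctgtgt

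The promoter sequence held 2 GAS matches, TTCTCGGAA at 120736187 to 120736195 and TTCAGAGAA at 120736205 to 120736213, which begin at -171 and -153 bp from the start site. A GAS match was found in 8.30% of 32851 RefSeq promoter sequences of the same length. The region at -50.1 kb held 2 CEBP matches and the region at +56.6 kb held 1, and 9.54% of all 155546 region windows of 201 bp held one. The region at -20.1 kb held the AP-1 match TGACTCA at 120716193 to 120716199, a motif found in 8.11% of all windows. The region at +31.2 kb held an E-box match, and the region at +7.7 kb held none of these motifs. None of the 63 windows of the locus held the ETS-IRF letters, against 4.30% of all windows. E-box matches lay in 19 of the 63 (30.2%, against 13.5% of all), PU.1 in 12 (19.0% against 17.7%), RUNX in 12 (19.0% against 16.9%) and CEBP in 8 (12.7% against 9.54%). AP-1 lay in 5 (7.94% against 8.11%), GAS in 5 (7.94% against 5.92%) and the IRF repeat in 1, at -55.0 kb (1.59% against 3.13%). These are descriptions of letters, without a test.

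**Figure D1:**
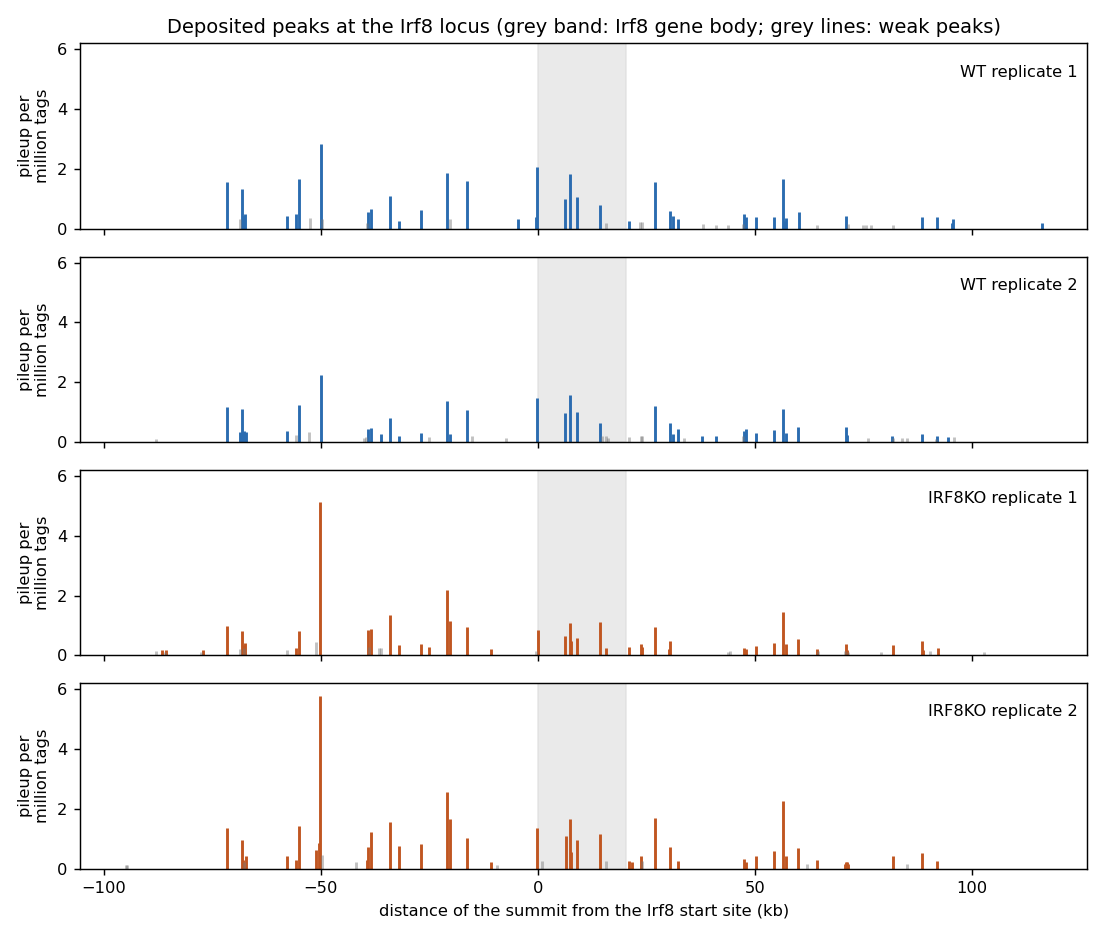
Normalised pileup per 1000000 header tags (vertical axis) of every deposited peak in the Irf8 window against the distance of its summit from the Irf8 start site in kb (horizontal axis), 1 panel per library. Coloured lines are strict peaks, grey lines weak ones and the grey band is the gene body; the peak at -50.1 kb is the highest in each panel and reaches 5.13 and 5.75 in the IRF8KO libraries.

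The locus was densely accessible in both genotypes. Its 63 regions exceeded the number in 98.7% of 21753 windows drawn in the same way around protein-coding genes, where the median was 23. Of the 63, 29 held a strict peak in all 4 libraries, or 46.0% against 31.0% of regions genome-wide. They lay 27 upstream, 7 at the promoter and in the gene body and 29 downstream. By summit position, 47 were between genes, 10 in introns and 6 in exons, leaving aside the read-through models Gm20388 and Gm27021. Strict peaks made up 178 of the 248 members, or 71.8% against 55.7% of all peaks on the chromosomes used. The 70 weak ones overlapped a region in 32 cases and stood alone in 38, with no more than 0.468 normalised pileup. The outermost regions lay at -86.7 and +116.1 kb, and the nearest ones beyond the window at -101.8 and +126.3 kb had at most 0.242 normalised pileup. The plot of pileup along the locus shows main peaks shared by every library, while that at -20.1 kb is tall in the IRF8KO panels only.

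Both libraries of a genotype held the same number of strict peaks in the window, 42 and 42 in WT against 47 and 47 in IRF8KO. The difference of 5 had an exact two-sided permutation p of 0.333 (n = 2 each), the smallest that 2 against 2 libraries allow. Genome-wide the strict peaks numbered 97473 and 98863 in WT, more than the 83996 and 95921 of IRF8KO. Strict peaks covered 10926 and 10378 bp in WT against 12577 and 13156 bp in IRF8KO. Their summed normalised pileup was 33.8 and 26.6 in WT against 31.0 and 40.6 in IRF8KO, and their mean pileup was 0.804 and 0.634 against 0.660 and 0.865. The groups overlapped in both sums and means. The difference in sums, 5.64, was smaller than the SD of the IRF8KO libraries, 6.79 (exact two-sided permutation p 0.667, n = 2 each). It was 12.9 after centring and ranged from 0.839 without IRF8KO replicate 2 to 10.4 without IRF8KO replicate 1.

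Heights of single regions were compared with limma over all 58550 shared regions, 39 of them in the window. On the scale of normalised pileup 1 of the 39 was higher in IRF8KO at an adjusted p under 0.05 (2.56%), close to the 2.81% called genome-wide, and 0 were lower (6.83% genome-wide). At an unadjusted p under 0.05, 0 were lower too (14.6% genome-wide). After centring, 12 of 39 were higher (30.8%, against 13.3% genome-wide) and 0 were lower (12.5% genome-wide), again with 0 lower at an unadjusted p under 0.05 (16.7% genome-wide). The median log2 difference over the 39 regions was 0.03 per tag and 0.33 after centring, against -0.31 and -0.0019 over all shared regions. The 12 comprised 7 upstream, 1 in the gene body and 4 downstream. Without WT replicate 1, 2 of the 12 remained after centring, those at -50.1 and -20.1 kb, while 4.57% of shared regions genome-wide were called higher. Without IRF8KO replicate 1, 8 remained (11.2% genome-wide). With 1 library left out, the spread comes from the other genotype alone, and the lone library is assumed to vary like it. With fold enrichment in place of pileup 1 of the 12 passed, that at -20.1 kb, while 2.43% of shared regions genome-wide were called higher. The groups did not overlap in 15 regions higher in IRF8KO (11.9% of shared regions genome-wide) and 7 lower (37.1%), and after centring in 20 higher (29.5%) and 4 lower (29.1%).

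**Figure D2:**
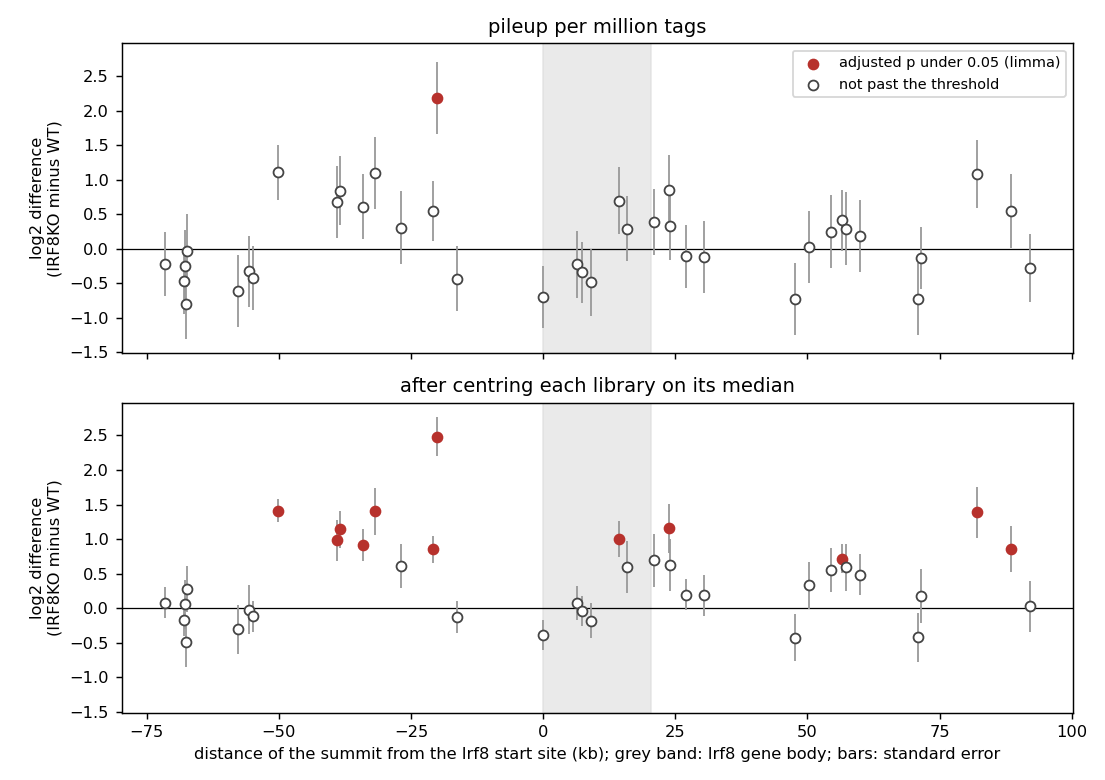
Log2 difference in pileup, IRF8KO minus WT, of the 39 shared regions (vertical axis; "per tag" is normalised pileup; bars are the standard error of limma) against distance from the Irf8 start site in kb, per tag in the upper panel and after centring in the lower. Filled points passed an adjusted p of 0.05, 1 in the upper panel (-20.1 kb) and 12 in the lower, and the grey band is the gene body.

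The promoter region, at 120735860 to 120736887, spans the start site, exon 1 and part of intron 1. Its normalised pileup was 2.07 and 1.49 in WT against 0.863 and 1.36 in IRF8KO (replicates 1 and 2 in this order, as throughout). Both IRF8KO values lay below both WT values, a mean of 1.11 ± 0.351 against 1.78 ± 0.405 (SD, n = 2 each). The log2 difference was -0.70 (SE 0.45, limma adjusted p 0.414) and -0.39 after centring (SE 0.22, adjusted p 0.198), so it did not pass the threshold on either scale. Without IRF8KO replicate 2 the promoter log2 difference was -1.03 per tag, where the genome-wide median was -0.595. With centring as well it was -0.36.

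In the gene body the regions at +6.4, +7.4 and +9.1 kb were strict in every library and did not pass the threshold. The highest, at +7.4 kb over an exon that some Irf8 transcripts use, had 1.85 and 1.57 normalised pileup in WT against 1.09 and 1.66 in IRF8KO. Its centred log2 difference was -0.04 (SE 0.21, limma adjusted p 0.928). The second start site that RefSeq gives, whose first exon runs from 120738639 to 120739226, held no peak in any library, nor did exon 2 at 120739817 to 120739991, where the start codon lies, except that 1 transcript model extends this exon to 120743234 and so over the +6.4 kb region. The labels of the knockout are therefore not checked by these peaks. At +14.4 kb, in an intron, the values were 0.788 and 0.634 in WT against 1.13 and 1.16 in IRF8KO. The groups did not overlap, which adds no support to a region picked by its centred call. The log2 difference was 0.70 (SE 0.49, limma adjusted p 0.462), or 1.0 after centring (SE 0.26, adjusted p 0.00160).

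The known upstream enhancer held the highest peak of the locus. The region at -50.1 kb, 120685732 to 120686481, lies over Gm33142, an unclassified transcript model. Its normalised pileup was 2.85 and 2.23 in WT against 5.13 and 5.75 in IRF8KO. Both IRF8KO libraries stood above both WT libraries, with means of 5.44 ± 0.443 and 2.54 ± 0.442 (SD, n = 2 each), a ratio of 2.14. The log2 difference of 1.11 (SE 0.40) narrowly missed the threshold per tag (limma adjusted p 0.0553) and passed it after centring, at 1.41 (SE 0.17, adjusted p 2.7e-10). Per tag it passed without IRF8KO replicate 1 (adjusted p 0.0128) and without IRF8KO replicate 2 (0.0264), but not without WT replicate 1 (0.877), without WT replicate 2 (0.922) or with the replicate block (0.673). After centring the highest adjusted p with 1 library left out was 0.0389. Within their own lists, 8.11% and 8.63% of strict peaks were higher in WT, and 0.760% and 1.43% in IRF8KO. A small region beside it at -51.0 kb had 0.457 and 0.619 in IRF8KO and no peak in WT. In IRF8KO it was a weak and a strict peak, with fold enrichment of only 1.91 and 2.15. Peaks covered 509 and 505 bp of the -50.1 kb region in WT and 750 and 654 bp in IRF8KO, where replicate 2 had 2 separate peaks, the higher one 478 bp long. The authors' fold enrichment, which divides by the local background over 10 kb, was 16.9 and 17.2 in WT against 21.4 and 20.1 in IRF8KO, and on that measure the log2 difference of 0.28 did not pass (limma adjusted p 0.455).

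A pair of regions lay about 20 kb upstream, of which 1 passed the threshold on both scales and the other after centring. The region at -20.1 kb, 120716044 to 120716380, had 0.319 and 0.286 normalised pileup in WT against 1.14 and 1.65 in IRF8KO. It was a weak and a strict peak in WT and strict in both IRF8KO libraries, with means of 0.303 ± 0.0235 and 1.39 ± 0.356 (SD, n = 2 each), a ratio of 4.60. It was the 1 region of the window that rose on the per tag scale (log2 difference 2.18, SE 0.52, limma adjusted p 0.000808), and it also rose after centring (2.48, SE 0.28, adjusted p 4.9e-11). Fold enrichment gave the same call, at 2.56 and 2.80 in WT against 7.65 and 9.91 in IRF8KO (log2 difference 1.70, adjusted p 0.0171). On the per tag scale the call was lost with the replicate number as a block (adjusted p 0.109), without WT replicate 1 (0.335) and without WT replicate 2 (0.334).

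Its neighbour at -20.9 kb was already high in WT. It had 1.87 and 1.39 normalised pileup in WT against 2.17 and 2.57 in IRF8KO, a ratio of means of 1.45. The log2 difference was 0.55 (SE 0.43, limma adjusted p 0.529), and 0.85 after centring (SE 0.20, adjusted p 0.000518). The sequence at its summit held an AP-1 match, a RUNX match and the GAS match TTCCAGGAA. Whether the differences of these neighbours themselves differ was not tested.

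Between these and the -50.1 kb region, 4 more shared regions passed after centring and not before it. They lay at -39.1, -38.5, -34.1 and -31.9 kb, with centred log2 differences of 0.98, 1.14, 0.91 and 1.40 (limma adjusted p 0.00832, 0.000482, 0.00149 and 0.000949). The region at -31.9 kb had 0.256 and 0.225 normalised pileup in WT against 0.355 and 0.740 in IRF8KO, so that its IRF8KO values were spread widely. Both IRF8KO libraries exceeded both WT libraries in all 4 regions, which adds no support because the regions were picked by their calls. The region at -16.3 kb, by contrast, had 1.62 and 1.08 in WT against 0.939 and 1.03 in IRF8KO, a centred log2 difference of -0.13 (limma adjusted p 0.764).

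Farther upstream lie Emc8, which encodes a subunit of an endoplasmic reticulum membrane protein insertion complex, and Cox4i1, which encodes a subunit of cytochrome c oxidase. Their shared promoter region at -68.0 kb had 1.34 and 1.12 normalised pileup in WT against 0.812 and 0.966 in IRF8KO. Its log2 difference was -0.47 (SE 0.47, limma adjusted p 0.642) and -0.17 after centring (SE 0.24, adjusted p 0.687). The regions at -71.6 and -55.0 kb, which are among the 8 highest of the window, had centred log2 differences of 0.08 and -0.12 (adjusted p 0.853 and 0.773). None of these 3 passed the threshold on either scale.

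Downstream, the known progenitor and monocyte enhancer was open in all 4 libraries. The region at +56.6 kb, 120792636 to 120793297, had 1.68 and 1.10 normalised pileup in WT against 1.46 and 2.25 in IRF8KO. The groups overlapped, with means of 1.39 ± 0.409 and 1.85 ± 0.559 (SD, n = 2 each). The log2 difference was 0.41 (SE 0.44, limma adjusted p 0.671), and 0.71 after centring (SE 0.21, adjusted p 0.00660). Its smaller companions at +54.4 and +57.2 kb had centred log2 differences of 0.55 and 0.60 and did not pass (adjusted p 0.226 and 0.214).

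The regions near the dendritic cell elements at +32 and +41 kb were lower in every library than those at -50.1 and +56.6 kb. Around +32 kb, the region at +30.5 kb was strict in every library and had 0.618 and 0.654 normalised pileup in WT against 0.482 and 0.710 in IRF8KO (centred log2 difference 0.18, limma adjusted p 0.716). The region at +31.2 kb, 120767478 to 120767645, had 0.426 and 0.266 in WT against no peak in either IRF8KO library. The region at +32.4 kb had 0.319 and 0.429 in WT, no peak in IRF8KO replicate 1 and 0.242 in IRF8KO replicate 2. The region at +41.1 kb had 0.149 and 0.205 in WT, a weak and a strict peak, and none in IRF8KO. A low region at +30.2 kb was called in IRF8KO replicate 1 alone, at 0.203.

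Other downstream regions were higher in IRF8KO after centring. Those at +23.8, +82.0 and +88.5 kb had centred log2 differences of 1.15, 1.39 and 0.85 (limma adjusted p 0.0103, 0.00274 and 0.0477). The region at +82.0 kb had 0.149 and 0.225 normalised pileup in WT against 0.355 and 0.423 in IRF8KO, and that at +23.8 kb had 0.234 and 0.205 in WT against 0.368 and 0.423 in IRF8KO. The groups did not overlap at either, which adds no support because both were picked by their calls. Both were low in all libraries. The region at +23.8 kb, 1 of the 12, was strict only in IRF8KO and so entered the fit through the libraries in which it is high, which leaves its call without support. The taller region at +27.1 kb had 1.55 and 1.21 in WT against 0.965 and 1.68 in IRF8KO, overlapping values with a centred log2 difference of 0.20 (limma adjusted p 0.585).

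**Figure D3:**
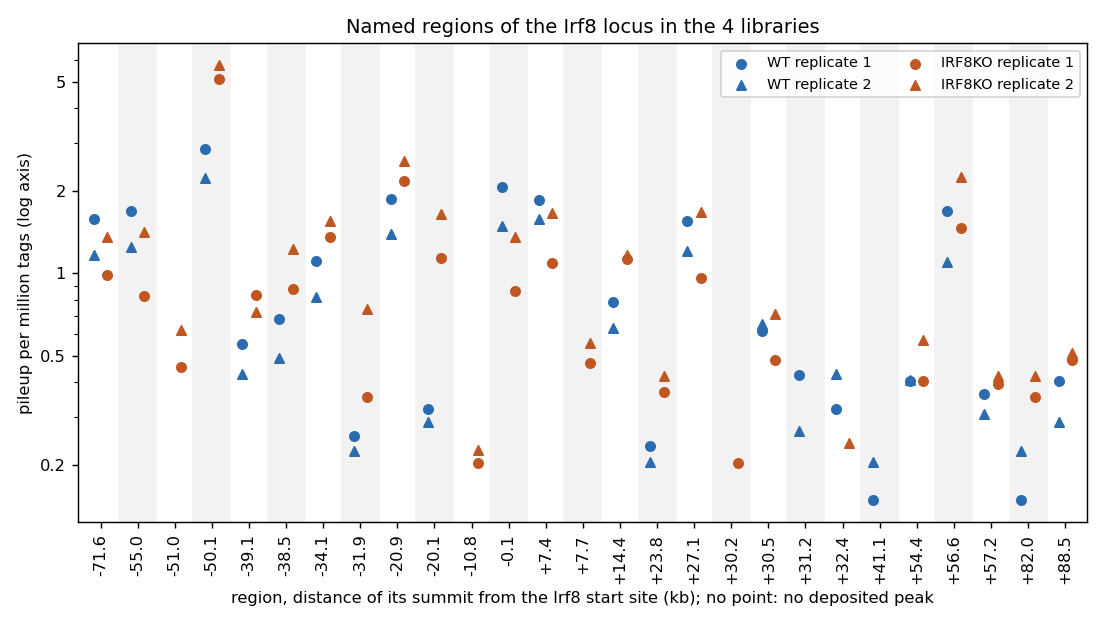
Normalised pileup on a log axis of 27 regions, ordered by distance from the Irf8 start site in kb, in WT (blue) and IRF8KO (orange), circles for replicate 1 and triangles for replicate 2. A missing point means no deposited peak; the IRF8KO points lie above the WT points at -50.1 and -20.1 kb, and IRF8KO points are missing at +31.2 and +41.1 kb.

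Few regions were present in 1 genotype only. The 1 WT-specific region, strict in replicates 1 and 2 of WT without any peak in IRF8KO, was that at +31.2 kb, which is 1 of 63 against 5.58% of regions genome-wide. The 2 IRF8KO-specific regions lay at -10.8 and +7.7 kb, against 3.86% genome-wide. With weak peaks counted as present, 5 regions were seen in both WT and neither IRF8KO library (7.94%, against 8.02% genome-wide), at -68.5, +31.2, +38.0, +41.1 and +95.8 kb. The converse held for 4 (6.35%, against 6.62%), at -51.0, -10.8, +7.7 and +70.7 kb. These shares were close to or below the genome-wide ones. They are described without a test.

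The heights behind these absences differed. The region at +7.7 kb, 120743982 to 120744200, had 0.470 and 0.559 normalised pileup in IRF8KO. At the lower of these heights WT replicates 1 and 2 would hold 22.0 and 23.0 cut sites, while their weakest peaks in the window held 6. A peak is called against its local background, so this minimum is not the limit at every position. In WT replicate 1, 6 cut sites gave a fold enrichment of 2.29 at +74.9 kb, while 18 gave 2.08 at -52.5 kb. The heights given here therefore do not show how near each absence was to a call. The +7.7 kb region lies beside the +7.4 kb region, which is high in every library. The region at -10.8 kb, with 0.203 and 0.227 normalised pileup, would hold 9.53 and 9.93 cut sites in WT. The region at +31.2 kb would hold 20.9 and 17.6 in IRF8KO replicates 1 and 2 at its lower WT height, where the weakest peaks in the window held 8 and 7.

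Loci most like this one were sought by the summed normalised pileup of strict peaks over gene body plus 100 kb on each side, as the Euclidean distance of log2 sums over the 4 libraries. The nearest were Dgkz and Creb3l1, which share their peaks, at 0.0818, then Ddx39 at 0.125, Spen at 0.135 and St6gal1 at 0.151. The Dgkz sums were 33.6 and 27.7 in WT against 29.9 and 41.4 in IRF8KO. These loci had 39 to 55 regions against 63 for Irf8.

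Promoters of 16 genes that work with IRF8 or control it in myeloid cells were examined in the same fit. All 16 had a strict promoter peak in all 4 libraries, with 44 shared regions among them. Per tag 1 of the 44 was higher in IRF8KO (2.81% genome-wide) and 2 were lower (6.83% genome-wide), shares of the list below the genome-wide ones, so that the 3 regions are given as single values and not as a result about the list. A Tcf4 promoter region, of the gene for an E protein, rose from 0.405 and 0.205 normalised pileup in WT to 0.761 and 1.36 in IRF8KO (log2 difference 1.82, SE 0.53, limma adjusted p 0.00949). It was 1 of 7 shared Tcf4 promoter regions, and the highest Tcf4 promoter peak had 3.83 and 3.93 in WT and 2.51 and 3.26 in IRF8KO. A Batf3 promoter region, the 1 of 4 that was shared, fell from 0.873 and 0.614 to 0.165 and 0.332 (-1.64, SE 0.53, adjusted p 0.0251). Batf3 encodes the partner of IRF8 at the +32 kb enhancer. A Zeb2 promoter region, 1 of 5 shared, fell too, from 0.745 and 0.532 to 0.178 and 0.257 (-1.56, SE 0.53, adjusted p 0.0351). It was strict only in WT and so entered the fit through the libraries in which it is high, which leaves its call without support. Zeb2 encodes a repressor that shapes monocyte and dendritic cell fate. Per tag, these 3 calls were lost with the replicate block and without either WT library, and those of Batf3 and Zeb2 also without IRF8KO replicate 1 (adjusted p 0.0913 and 0.0522) and by fold enrichment (0.247 and 0.0971). After centring, the calls of Batf3 and Zeb2 were lost without WT replicate 1 (0.105 and 0.114). After centring, 7 of the 44 were higher and 4 lower, against 13.3% and 12.5% genome-wide.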

How the data were processed

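Per the file headers, the authors ran MACS 2.1.1.20160309 on each library alone and used no control, with a p cutoff of 0.01 and cut sites extended to 73 bp. Per the submitters' processing notes, the build was mm10 and Bowtie2 was among the tools. The deposited pileup is a signal, a whole-number depth at the summit not scaled for library size. The fold enrichment in the deposited lists is a ratio to local background. The deposited p and q are −log10 values, and q was filled in although the headers say it was not calculated. Header tags were 46948938 and 48896408 in WT and 78793572 and 66224648 in IRF8KO, and tag size was 50 bp in WT and 49 bp in IRF8KO, so that these cannot be told apart from genotype.

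Rows of 1 interval were reduced to its best summit. Strict peaks of the 20 chromosomes used were joined into regions. A region's value in a library is the highest pileup of a deposited peak overlapping it by at least 1 bp, per 1000000 header tags (normalised pileup, or "per tag"). Regions with a peak in all 4 libraries were fitted on the log2 scale of normalised pileup, computed from the deposited values, with limma 3.58.1 (eBayes with trend, Benjamini-Hochberg over all regions), with no pseudocount. The script was tested on simulated data. Coordinates follow GRCm38 and GENCODE M21, counted from 1, and 0 regions ran past a chromosome end.

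Regions were named if within 1 kb of the start site, within 2 kb of the known enhancer positions at -50, +32, +41 and +56 kb, past the threshold, specific to 1 genotype, or among the 8 highest. Regions past the threshold only after centring, and others given with values, were added after their values were seen. The members and lists were chosen with earlier results of these data known. Alternatives included centring, quantile normalization, fold enrichment, stricter filters, a pseudocount of 0.1, the replicate block and leaving out each library. Precision is limited by 2 libraries per genotype and, for low peaks, by few cut sites.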

Additional observations from a re-analysis of the deposited data

How the results depend on the processing

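The count of regions higher in IRF8KO was 1 per tag. It was 12 after centring, 11 after quantile normalization (12.2% genome-wide), 0 with a strict peak required in all 4 libraries (29 regions tested, 2.38% genome-wide) and 0 with the replicate block (0.562% genome-wide). The strict requirement left out the -20.1 kb region, a weak peak in WT replicate 1, so its call was not tested in that setting. Without 1 library it was 0 to 3 per tag (0.220% to 5.71% genome-wide). In settings chosen after seeing the data, 12 remained after centring with the replicate block (13.4% genome-wide), and 2, 10, 8 and 12 without WT replicates 1 and 2 and IRF8KO replicates 1 and 2 (4.57%, 10.5%, 11.2% and 13.3% genome-wide). The count lower in IRF8KO was 0, except 2 per tag without IRF8KO replicate 2 (21.5% genome-wide). The promoter difference ran from -1.03 (without IRF8KO replicate 2, adjusted p 0.0425) to -0.37 without 1 library. WT-specific regions numbered 0 at −log10 q 5, 6 with all deposited peaks and 1 to 5 without 1 library. IRF8KO-specific ones numbered 4 with all deposited peaks and 2 to 7 without 1 library. No genome-wide shares are given for either kind of count, so their movement between settings is not read as a result about the locus. The cause was not tested. The difference in strict peaks was 5 with the replicate block and 0 with all deposited peaks. That in summed pileup was 5.64 with the block, 12.9 after centring and 0.839 to 10.4 without 1 library. Nothing in the labels says that the replicate numbers pair animals, so they were not taken as pairs. Replicate 1 minus 2 differences of the genotypes correlated at 0.0044 over 58550 regions, which does not settle whether they pair. Some differences that did not pass changed sign. At -71.6 kb the value was 0.079 after centring (with and without the block), 0.072 after quantile normalization, -0.45 to 0.0037 without 1 library, and 0.11, 0.010, 0.040 and 0.21 with both centring and 1 library left out. At +27.1 kb it was 0.20 after centring (with and without the block) and quantile normalization, -0.51 to 0.29 without 1 library (0.076 without WT replicate 1), and 0.19, 0.16, 0.33 and 0.16 with both. At +30.5 kb it was 0.18 after centring (with and without the block), 0.19 after quantile normalization, 0.16 by fold enrichment, -0.40 to 0.16 without 1 library, and -0.043, 0.37, 0.19 and 0.27 with both. At +54.4 kb it was -0.023 by fold enrichment and -0.0026 to 0.50 without 1 library, at +57.2 kb -0.014 by fold enrichment. After centring it was 0.0065 at -55.0 kb without IRF8KO replicate 1 and 0.021 at +7.4 kb without IRF8KO replicate 2.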
